A study of Mus musculus with 8 samples.

Results

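The Hox cluster genes are the homeobox genes of the 4 mammalian Hox clusters, Hoxa on chromosome 6, Hoxb on chromosome 11, Hoxc on chromosome 15 and Hoxd on chromosome 2 of the mouse. The 38 genes described here were taken by name from a list of the clusters' genes, and the rule for membership uses no measured value, although the list was drawn up with earlier results of these data known. A probe with a matching name was found for 37 of the 38, in 49 probes of the 41174 on the array, and none was found under the name Hoxc11. Of the 37 genes, 23 passed the filter on dim probes and were tested, among 18506 genes in all. The other 14 were not tested, and their detection is given below.

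RNA came from the epithelium of the dorsal pancreas, microdissected from e12.5 mouse embryos, and each sample was a pool of 3 embryos hybridised to 1 single-colour Agilent array. Embryos of both genotypes were homozygous for a floxed Sox9 allele on a mixed FVB/N and C57Bl/6J background. The mutant embryos (Sox9 fl/fl; Pdx1-Cre, 4 samples) also carried a Cre transgene driven by the Pdx1 promoter, which is active in pancreatic progenitors, and the wild-type embryos (Sox9 fl/fl, 4 samples) carried no Cre. Genotype and the presence of Cre cannot be told apart, and any deletion is limited to cells in which the Pdx1 promoter was active. The description of the series gives 3 biological replicates, and 4 arrays per genotype were used. Nothing further states that the pools came from separate litters, so that p-values measure only the spread between these samples, which may be in part technical.

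Hox genes encode transcription factors that give cells their position along the body axis. Within a cluster they are numbered in 13 paralog groups from the 3′ to the 5′ end, and the low-numbered genes are switched on earlier and farther toward the head than the high-numbered genes. In the trunk, Hox genes are known chiefly from neural tube, somites and mesenchyme, including the mesenchyme around the gut. Their proteins bind DNA together with cofactors of the Pbx, Meis and Pknox families. Retinoic acid and Cdx factors are known to activate Hox genes, and polycomb and trithorax proteins maintain their silent and active states.

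Signals are given as log2 of the processed signal after subtraction of the 75th percentile of each array, so that 0 is that percentile, and levels of different genes are not compared, since they come from different probes. Sox9, the targeted gene, was measured at 3.01, 2.13, 1.82 and 2.19 on the wild-type arrays and at -0.61, -1.79, -0.01 and 0.77 on the mutant arrays, each in the order of the replicate numbers. Its log2 difference, mutant minus wild-type, was -2.70 (SE 0.517, limma adjusted p = 0.0253). All wild-type arrays lay above all mutant arrays for Sox9, and it passed in 4 of 8 fits with 1 array omitted, not without wild-type replicates 1, 2 or 4 or mutant replicate 1. Of the 14 genes in a list of epithelial markers, all were tested and 13 fell, beside 3.81% of all genes called lower. The summed linear signal of the 14 ran from 100.3 to 139 in wild-type and from 36.2 to 57.0 in mutant arrays, in units of the 75th percentile. Samples labelled as epithelium also held signal of other tissues in both genotypes. Of 20 mesenchyme genes on the list, 19 were tested, all but Tbx18. Their summed signal ran from 341 to 439 in wild-type and from 482 to 656 in mutant arrays. Such sums are weighted toward the brightest probes, such as Krt8 in the epithelial list and Col1a2 in the mesenchyme list. The share of spots well above background ran from 59.4% to 77.7% over the arrays, with the highest shares on wild-type replicate 3 (77.7%) and mutant replicate 1 (75.3%). The arrays lay on 3 slides, each with both genotypes. The Y-linked gene Ddx3y lay between -7.43 and -4.86 on 3 wild-type arrays, at -0.82 on wild-type replicate 3 and between -1.37 and 0.11 on the mutant arrays. Embryo sex thus ran in part with genotype, and its part in the results was not tested.

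Which paralog groups gave a signal in this tissue was the first question. A gene is called detected in a genotype where the scanner software marked at least 1 of its probes as well above background on all 4 arrays. Of 37 Hox genes with a probe, 19 were detected in the wild-type and 20 in the mutant, which is 51.4% and 54.1%. Among all 27828 names on the array the shares were 60.0% and 58.3%. The detected genes lay in paralog groups 2 to 9, and in each genotype 18 of the 20 genes of groups 2 to 8 were detected. Every gene of groups 2, 4, 5, 6 and 7 was among them in both genotypes. The 2 exceptions were Hoxd3, well above background on 3 wild-type arrays and 1 mutant array, and Hoxc8, which was so on none.

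Group 9 lay at the edge of the detected range. Hoxa9 was well above background on all 8 arrays, Hoxb9 on 3 wild-type and 4 mutant arrays, Hoxc9 on 2 and 3, and Hoxd9 on 1 and 2. At the other end of the clusters, Hoxb1, a gene of the hindbrain, was well above background on 0 wild-type and 2 mutant arrays, and Hoxd1 on 1 and 0. None of the 11 genes of groups 10 to 13 with a probe was detected in either genotype. These groups are known for patterning the limb, the hindgut and the urogenital tract. Of them, Hoxd12 reached 1 wild-type and 3 mutant arrays and was the only one tested. Hoxb13 and Hoxc10 each reached 1 and 2 arrays, and Hoxa10, Hoxc12 and Hoxc13 reached none. By cluster, 7 of 10 Hoxa, 7 of 10 Hoxb, 3 of 8 Hoxc and 2 of 9 Hoxd genes with a probe were detected in the wild-type. Between genotypes the count differed only in Hoxb, where Hoxb9 made it 8 in the mutant.

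**Figure D1:**
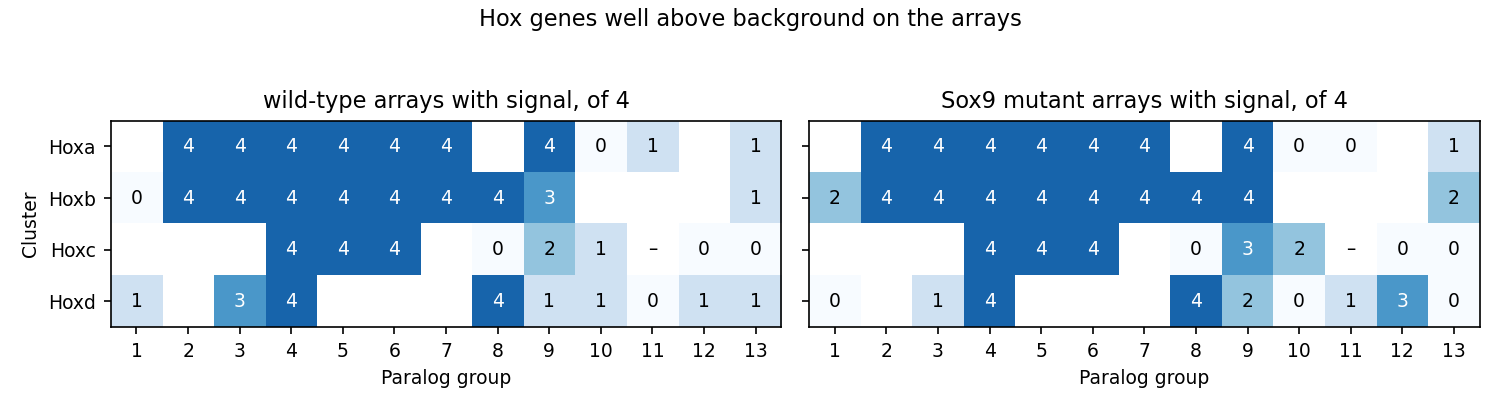
Number of arrays, of 4 per genotype, on which each Hox gene was well above background, by cluster (rows) and paralog group (columns), for wild-type (left) and Sox9 mutant (right) samples. Darker cells stand for more arrays, empty cells are positions with no listed gene, and a dash marks Hoxc11, which had no probe. The 4s fill groups 2 to 8 except for Hoxd3 and Hoxc8, and no gene of groups 10 to 13 reaches 4.

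The few signals of groups 10 to 13 came mostly from certain arrays. Of the 11 genes, 6 were well above background on wild-type replicate 3 and 4 on mutant replicate 1, against 0, 0 and 1 on wild-type replicates 1, 2 and 4 and 1, 2 and 2 on mutant replicates 2, 3 and 4. Hoxc10 lay at -6.88, -6.85, -1.49 and -7.46 on wild-type arrays 1 to 4 and at -3.11, -7.43, -3.02 and -6.1 on mutant arrays 1 to 4, numbered by replicate. Its signal was thus high on wild-type array 3 and mutant arrays 1 and 3, and low on the other 5. Hoxa13 had its highest signals on the same 3 arrays, at -1.86, -3.79 and -4.46, and lay between -7.51 and -5.49 elsewhere. Hoxb13 lay at -2.74, -4.30 and -4.38 on these arrays and between -7.63 and -6.70 elsewhere.

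Probes for olfactory receptors, genes of the nasal epithelium taken as a measure of weak signal after the values were seen, were also unevenly marked. Of 952 such probes, 36.8% were well above background on wild-type replicate 3 and 41.2% on mutant replicate 1, against 13.6% on mutant replicate 3 and 16.2% to 29.6% on the other 5 arrays. Wild-type replicate 3 and mutant replicate 1 thus had more posterior Hox genes and more olfactory receptor probes marked, whereas mutant replicate 3 had Hoxc10, Hoxa13 and Hoxb13 signal with the lowest olfactory share. The part of array background, or of other tissue in a pool, in these posterior signals was not tested.

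**Figure D2:**
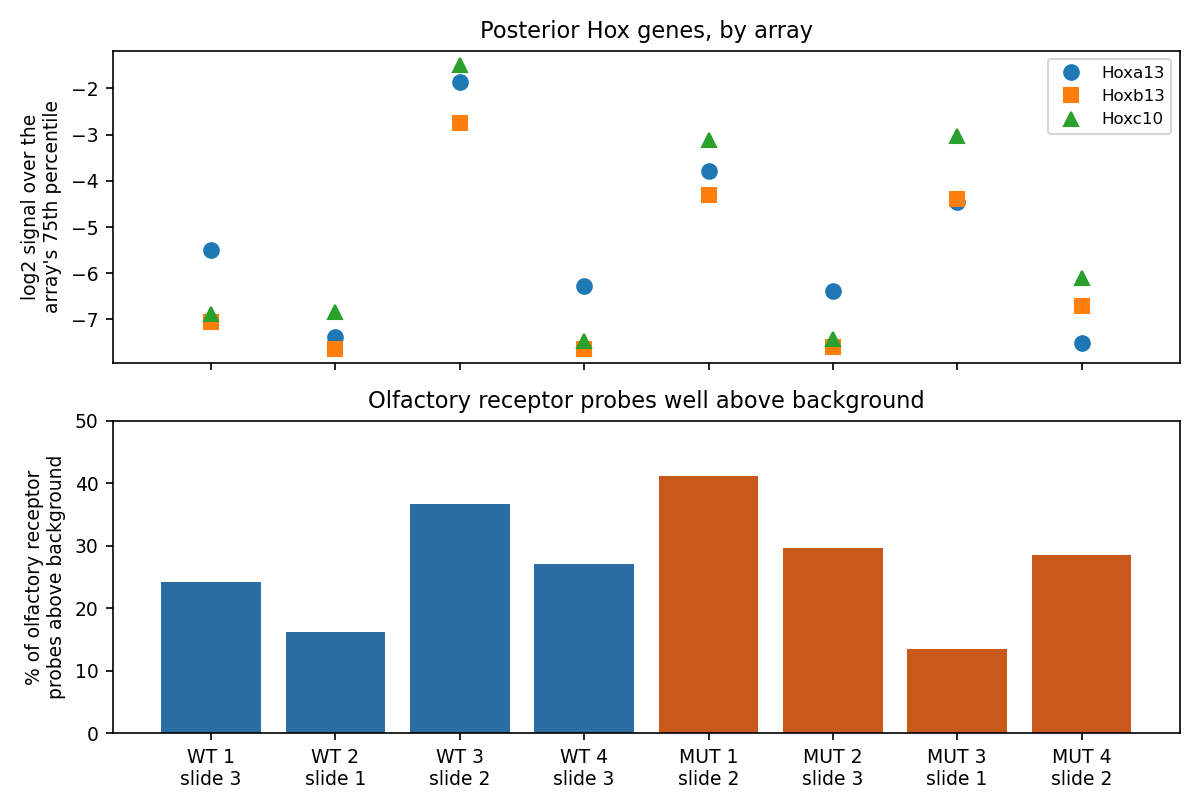
Top, log2 signal over the 75th percentile of the array for posterior Hox genes on each array; bottom, percent of 952 olfactory receptor probes well above background on the same arrays, with slide numbers. Wild-type replicate 3 carries the highest Hoxc10 point (-1.49) and a receptor share of 36.8%, and mutant replicate 3 carries Hoxc10 at -3.02 with a share of 13.6%.

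The comparison of mutant with wild-type samples asks which Hox genes differ when Sox9 is deleted. Of 23 tested Hox genes, 1 fell, Hoxa9, and none rose at an adjusted p under 0.05 in limma, with adjustment over all 18506 genes. That is 4.35% of the Hox genes, beside 5.37% of all genes called in either direction, 1.56% called higher and 3.81% called lower, so the count of calls was near the background. At a raw p under 0.05 there were 11 of 23, beside 18.8% of all genes. The log2 difference was above 0 in 18 of 23, beside 52.8% of all genes, with a median of 0.41 beside 0.02 for all genes. Among the 19 Hox genes detected on all 8 arrays, 16 differences were above 0 and the median was 0.41. All 4 mutant arrays lay above all 4 wild-type arrays in 7 of 23 genes (30.4%), beside 7.23% of all genes, and below them in 1 gene, beside 7.98%. The median stayed above 0 in all 20 alternative settings, between 0.23 and 0.55. In simulated data of this design with 200 of 18497 genes changed, 4% of changes of 0.5 and 46% of changes of 1 were recovered. In the real data 994 genes were called, so recovery there may differ. The simulation therefore does not give the share of Hox differences that went uncalled. In bulk tissue, fewer cells of a type and less RNA per cell cannot be told apart.

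**Figure D3:**
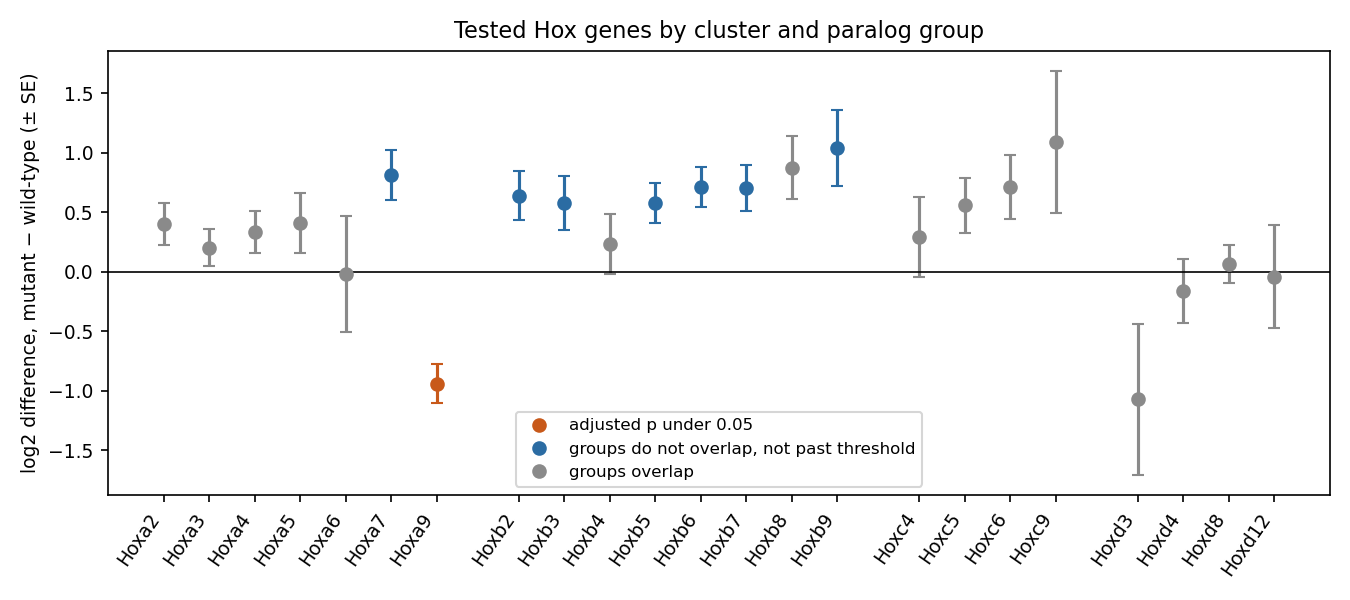
Log2 difference, mutant minus wild-type, with its standard error for the 23 tested Hox genes, ordered by cluster and paralog group. All 8 Hoxb genes and all 4 Hoxc genes lie above 0, and Hoxa9 lies at -0.94.

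In the Hoxa cluster, neighbouring genes differed in direction. Hoxa9, a regulator of blood progenitors and of lumbar patterning, was the one Hox gene that passed the threshold. Its signals, from a probe at chr6:52153853-52153912 (mm8, minus strand), were 0.01, 0.17, 0.29 and 0.16 on wild-type arrays 1 to 4 and -0.60, -1.09, -1.0 and -0.44 on mutant arrays 1 to 4. Every mutant array lay below every wild-type array. The means were 0.16 ± 0.11 (SD, n = 4) and -0.78 ± 0.31 (SD, n = 4). Hoxa9 fell by 0.94 on the log2 scale (SE 0.165, 1.92-fold, limma adjusted p = 0.0186), with a p of 0.0286 in the exact permutation test, which is the lowest value 4 against 4 arrays allow. The difference was -1.17, -0.81 and -1.17 within slides 1, 2 and 3. The authors' deposited value table, tested the same way, gave -0.83 (limma adjusted p = 0.00681).

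The direction held in all 20 alternatives and the call in 14, with the adjusted p in limma between 0.00506 and 0.243. The call was lost without wild-type replicate 3 (-0.90, adjusted p = 0.0558) and without wild-type replicate 4 (-0.94, 0.0605). It was also lost without the filter on dim probes (-0.94, adjusted p = 0.0522), where more genes are tested. Without both arrays of high olfactory receptor signal the difference was -0.96 (adjusted p = 0.109). The fall of Hoxa9 thus kept its direction without any single array, while its call needed both wild-type replicates 3 and 4.

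Hoxa7, a patterning gene of the thoracic region and the next listed gene to Hoxa9 on chromosome 6, had the lowest raw p of the other Hoxa genes. Its signals, from a probe at chr6:52145210-52145269, were -0.25, 0.18, 0.18 and 0.12 in wild-type and 1.13, 1.12, 0.96 and 0.28 in mutant replicates 1 to 4. The groups did not overlap, and mutant replicate 4 lay close to the wild-type arrays. The log2 difference was 0.81 (SE 0.211, 1.76-fold, limma adjusted p = 0.0665), and the exact permutation p was 0.0286. Within slides it was 0.78, 0.52 and 1.19. It passed the threshold in 3 of 20 alternatives, 1 of them the fit without mutant replicate 4 (1.01, adjusted p = 0.0114), with the adjusted p between 0.0114 and 0.447.

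Because Hoxa7 and Hoxa9 neighbour each other and their differences had opposite signs, the 250 bases before the start of each gene are shown, from RefSeq on GRCm38.p6, 5′ to 3′ on the minus strand from which both are read. Capitals mark TTTATG, the letters searched for Cdx factors. The Hoxa7 window lies at chr6:52218574-52218823 and the Hoxa9 window at chr6:52227371-52227620.
Hoxa7: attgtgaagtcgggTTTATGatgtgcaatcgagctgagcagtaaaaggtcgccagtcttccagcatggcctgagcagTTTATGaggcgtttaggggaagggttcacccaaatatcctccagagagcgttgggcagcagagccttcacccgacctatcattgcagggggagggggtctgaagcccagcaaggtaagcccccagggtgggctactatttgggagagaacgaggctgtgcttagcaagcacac
Hoxa9: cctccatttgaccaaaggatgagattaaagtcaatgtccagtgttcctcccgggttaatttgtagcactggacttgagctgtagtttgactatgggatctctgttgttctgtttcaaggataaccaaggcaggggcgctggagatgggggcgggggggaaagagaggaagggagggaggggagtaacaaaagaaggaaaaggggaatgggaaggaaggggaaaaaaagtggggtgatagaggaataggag
The Hoxa7 window held TTTATG in 2 places that do not overlap, 236 to 231 and 173 to 168 bases before the start, and the Hoxa9 window did not hold it on either strand. TTTATG occurred in 10.8% of all 32851 windows of this length, both strands searched, and in windows of 5 of the 22 Hox genes that have one. TGATNNAT for Pbx-Hox pairs (7.68% of all windows, 4 Hox genes), TGACAG for Meis (15.9%, 2 Hox genes) and AACAAT for Sox factors (9.42%, 0 Hox genes) were found in neither of the 2 windows. The Hoxa7 window was 54.8% G and C with 7 CpG dinucleotides and the Hoxa9 window 49.6% with 3, beside medians of 52.4% and 6 over all windows. These matches describe the letters only.

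The other Hoxa genes did not pass the threshold in any setting. Hoxa2, a hindbrain and branchial arch gene, had a difference of 0.40 (limma adjusted p = 0.269), and Hoxa5, a gene of lung and gut mesenchyme, had 0.41 (0.474). Hoxa3 and Hoxa4 had 0.20 and 0.33, and each had a second probe with the same sign, at 0.37 and 0.26. For these 4 genes the groups overlapped. Hoxa6 had -0.02 (adjusted p = 0.992), and its sign turned in 8 of 20 alternatives.

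The Hoxb cluster had a difference above 0 in all 8 tested genes, beside 52.8% of all genes, with a median of 0.67. In 6 of the 8, every mutant array lay above every wild-type array, beside 7.23% of all genes. None of the Hoxb genes passed the threshold in limma, and 7 of the 8 had a raw p under 0.05, beside 18.8% of all genes. Hoxb6, a trunk patterning gene, had the lowest adjusted p of the cluster. Its probe at chr11:96117339-96117398 gave 1.96, 1.74, 1.59 and 1.73 in wild-type and 2.29, 2.63, 2.81 and 2.13 in mutant replicates 1 to 4. The lowest mutant array, replicate 4, lay above the highest wild-type array, replicate 1. The means were 1.76 ± 0.15 (SD, n = 4) and 2.47 ± 0.31 (SD, n = 4), a log2 difference of 0.71 (SE 0.170, 1.64-fold, limma adjusted p = 0.0520), and the exact permutation p was 0.0286. With slide as a block it passed (0.80, adjusted p = 0.0230), as it did in the authors' deposited value table (0.67, 0.0153). It passed in 8 of 20 alternatives, with the adjusted p between 0.0123 and 0.351. A second Hoxb6 probe, at chr11:96115057-96115116, gave 0.22 (limma adjusted p = 0.545), and the mean of both probes gave 0.46.

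Hoxb2, a hindbrain gene, had a mean of 2.45 ± 0.16 (SD, n = 4) in the wild-type arrays and of 3.09 ± 0.40 (SD, n = 4) in the mutant arrays, a difference of 0.64 (limma adjusted p = 0.122). A probe that carries the name Hoxb2 but is listed on the opposite strand gave 0.04 (adjusted p = 0.967). Hoxb5, known from gut mesenchyme and the nerve cells of the gut, lay between 0.72 and 1.28 in wild-type and between 1.36 and 1.79 in mutant samples (difference 0.57, adjusted p = 0.0941). Hoxb7 lay between 0.32 and 1.18 in wild-type and between 1.5 and 1.72 in mutant samples (0.70, adjusted p = 0.0790). These 3 genes had groups that did not overlap, and so had Hoxb3 (0.58, limma adjusted p = 0.214), by a small gap between -0.14 and -0.04. A second Hoxb3 probe gave 0.24 (limma adjusted p = 0.726), and its groups overlapped, with wild-type replicate 3 at -0.01 above every mutant array.

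Toward the 5′ end of the cluster, Hoxb8 had a difference of 0.87 (limma adjusted p = 0.105), and its wild-type and mutant ranges overlapped. It passed in 5 of 20 alternatives, among them the authors' deposited value table (0.60, adjusted p = 0.0321), and its difference was 0.54 with normexp background correction. A second Hoxb8 probe was well above background on 1 wild-type and 1 mutant array and was not tested. Its mean difference was 0.13. Hoxb9 lay between -5.38 and -3.94 in wild-type and between -3.70 and -3.42 in mutant samples, a difference of 1.04 (adjusted p = 0.108), and with slide as a block it passed (1.23, adjusted p = 0.0363). Its second probe gave 1.17 (limma adjusted p = 0.207), with overlapping groups, since wild-type replicate 3 at -3.45 lay within the mutant range. That probe was well above background on 1 wild-type and 4 mutant arrays. It met the filter only through the mutant arrays and is no separate support for the difference. The signals of Hoxb9 were near background, and the difference was 0.44 in the authors' deposited value table. Hoxb4 had 0.23 (limma adjusted p = 0.751) and overlapping groups.

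**Figure D4:**
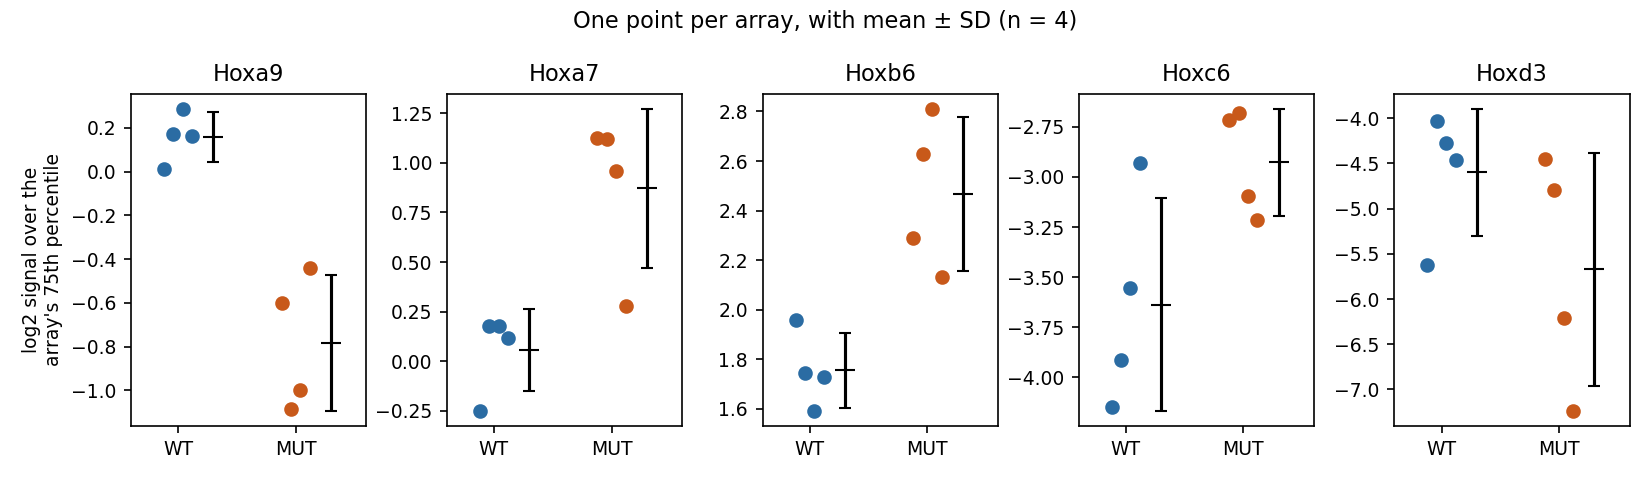
Log2 signal over the 75th percentile of the array for Hoxa9, Hoxa7, Hoxb6, Hoxc6 and Hoxd3, 1 point per array, with the mean ± SD (n = 4) of wild-type (WT) and mutant (MUT) samples. The groups do not overlap for Hoxa9, Hoxa7 and Hoxb6, and they overlap for Hoxc6 and Hoxd3.

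The 4 tested Hoxc genes all had a difference above 0, beside 52.8% of all genes, with a median of 0.63. None of them passed the threshold in limma in any setting. At a raw p under 0.05 there were 2 of the 4, beside 18.8% of all genes. Hoxc6, which marks the anterior thorax, had the lowest raw p among them. Its probe at chr15:102839635-102839696 gave -4.15, -3.91, -3.56 and -2.93 in wild-type and -2.72, -2.68, -3.10 and -3.22 in mutant replicates 1 to 4. Wild-type replicate 4 lay within the mutant range, so the groups overlapped. The difference was 0.71 (SE 0.267, limma adjusted p = 0.190), with an exact permutation p of 0.0857, and it was 0.82, 0.59 and 0.86 within slides 1, 2 and 3. It was 0.40 with normexp background correction and 0.49 in the authors' deposited value table. Hoxc5 had 0.56 (limma adjusted p = 0.235), Hoxc4 had 0.29 (0.780) and Hoxc9, dim on several arrays, had 1.09 (0.398). The Hoxc9 difference was -0.52 within slide 2, 0.35 in the authors' deposited value table and 0.22 with normexp background correction.

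The Hoxd cluster had a median of -0.10 over its 4 tested genes, with 1 difference above 0, and no gene passed in limma in any setting. At a raw p under 0.05 there were 0, beside 18.8% of all genes. Hoxd3, a gene of the upper neck vertebrae, had the lowest raw p among them. Its probe at chr2:74546572-74546631 gave -5.62, -4.03, -4.28 and -4.46 in wild-type and -4.45, -4.79, -6.21 and -7.23 in mutant replicates 1 to 4. The groups overlapped, and 3 of the 4 mutant spots were not well above background. The difference was -1.07 (SE 0.633, limma adjusted p = 0.443), with an exact permutation p of 0.200. It was -0.55 without mutant replicate 4 and -1.48 without mutant replicate 1. It was -0.69 with quantile normalization of the processed signal, -0.22 with normexp background correction and -0.24 in the authors' deposited value table. Hoxd4 (-0.16, limma adjusted p = 0.859), Hoxd8 (0.06, 0.918) and Hoxd12 (-0.04, 0.981) changed sign in some alternatives, in 2 of 20, 4 of 20 and 8 of 19. The difference between clusters was not tested.

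Of the partners of Hox proteins, the TALE cofactors, all 9 were tested, 1 rose, none fell and 8 did not pass. Among all genes, 1.56% were called higher and 3.81% lower. The cofactors' differences were above 0 in 8 of 9, beside 52.8% of all genes, with a median of 0.25. Pknox2 rose from -1.80 ± 0.10 to -1.24 ± 0.21 (SD, n = 4 each), a difference of 0.56 (SE 0.130, limma adjusted p = 0.0473), and it lost the call on leaving out any 1 of the 8 arrays (adjusted p 0.0549 to 0.129). Meis1 (0.50, limma adjusted p = 0.0971) and Meis2 (0.36, 0.171) did not pass. For both, every mutant array lay above every wild-type array, which was so for 7.23% of all genes.

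Among 15 tested genes of retinoic acid signalling, 2 rose, none fell and 13 did not pass, with a median of 0.24. Of all genes, 1.56% were called higher and 3.81% lower. Cyp26b1, which breaks down retinoic acid, rose by 1.08 (SE 0.192, limma adjusted p = 0.0200), and Rarb, a receptor that is itself induced by retinoic acid, rose by 0.67 (SE 0.142, adjusted p = 0.0344). On leaving out 1 array, Cyp26b1 lost the call without wild-type replicate 3 or 4 or mutant replicate 2 (adjusted p up to 0.0645 in limma), and Rarb kept it without mutant replicate 4 alone (up to 0.0978). Of the Cdx and ParaHox genes, 2 of 6 were tested. Pdx1, a ParaHox gene that makes the pancreas, fell by 3.08 (SE 0.492, limma adjusted p = 0.0132), and Gsx1 had 0.42 (0.740). Cdx1, Cdx2, Cdx4 and Gsx2 did not pass the filter on dim probes.

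The regulators that hold Hox clusters silent or active showed no call. None of 15 polycomb genes and none of 8 trithorax genes passed in limma, with medians of -0.02 and -0.01. At a raw p under 0.05 there were 1 and 0, beside 18.8% of all genes. Genes next to the clusters gave 1 call in 17, beside 5.37% of all genes called in either direction. It was Snx10, a sorting nexin near Hoxa, which fell by 0.87 (SE 0.121, limma adjusted p = 0.00958). Snx10 passed with each of the 8 arrays omitted in turn. The median of these neighbours was 0.02, beside 0.41 for the Hox genes, and the difference between the lists was not tested.

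Markers of other cell types also differed between the genotypes, and their values were not compared with the Hox genes array by array. Among all genes, 1.56% were called higher and 3.81% lower, and 52.8% had a difference above 0. Of 19 tested mesenchyme genes, 4 rose, none fell and 18 differences were above 0, with a median of 0.59. Those that rose were Bapx1, now named Nkx3-2 (0.91, limma adjusted p = 0.00958), Pdgfra (0.80, 0.0349), Postn (0.73, 0.0456) and Col1a2 (0.67, 0.0430). Of the 8 fits with 1 array omitted, Bapx1 passed in 8, Pdgfra in 2, Postn in 1 and Col1a2 in 0, all with the same sign. Of 7 genes of splenic mesenchyme, which lies beside the dorsal pancreas, Tlx1 (1.04, limma adjusted p = 0.0324) and Bapx1 rose, none fell, and the median was 0.96. Tlx1 passed in 2 of the 8 fits without 1 array. The summed signal of this list ran from 18.2 to 25.5 in wild-type and from 33.1 to 40.5 in mutant arrays. In mesothelium 2 of 8, in endothelium 2 of 10 and in macrophages 4 of 10 rose and none fell, with medians of 0.82, 0.47 and 0.64. Liver genes gave 2 that rose and 1 that fell of 8 (median 1.44), and nephric genes 1 that rose of 6 (median 0.11).

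Other lists had a median below 0. Among all genes, 3.81% were called lower. Of 8 tested nerve and neural crest genes, none rose and 3 fell, Erbb3 by 2.36, Sox10 by 1.54 and Foxd3 by 0.99, with a list median of -0.75. The other 5 did not pass. The neuronal gene Stmn2 went the other way, with a difference of 0.60 (limma adjusted p = 0.0867, exact permutation p = 0.0286). Erbb3 and Sox10 passed in all 8 fits without 1 array, and Foxd3 in 1. Of 11 pancreatic progenitor genes 10 fell, with a median of -2.74, and the epithelial list had a median of -2.31. Of the intestinal list Vil1 alone was tested, and it fell by 0.96 (limma adjusted p = 0.0174; not past the threshold without wild-type replicate 1 or 4), while Cdx1, Cdx2, Cdh17 and Isx were too dim. The median of the Hox genes, 0.41, was above 0. So were the medians of both mesenchymal lists and of the mesothelium, endothelium, macrophage, liver and nephric lists. The cofactor, retinoic acid and cluster neighbour lists also had medians above 0. Hoxa9 fell, and medians below 0 were those of the epithelial, pancreatic progenitor, nerve and neural crest, and intestinal lists. The Cdx and ParaHox, polycomb and trithorax lists had medians below 0 too. A shared sign thus does not link the Hox genes to any single list. The part of a changed share of cell types in the Hox differences was not tested. The lists share some genes, such as Bapx1 and Barx1 in both mesenchymal lists.

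**Figure D5:**
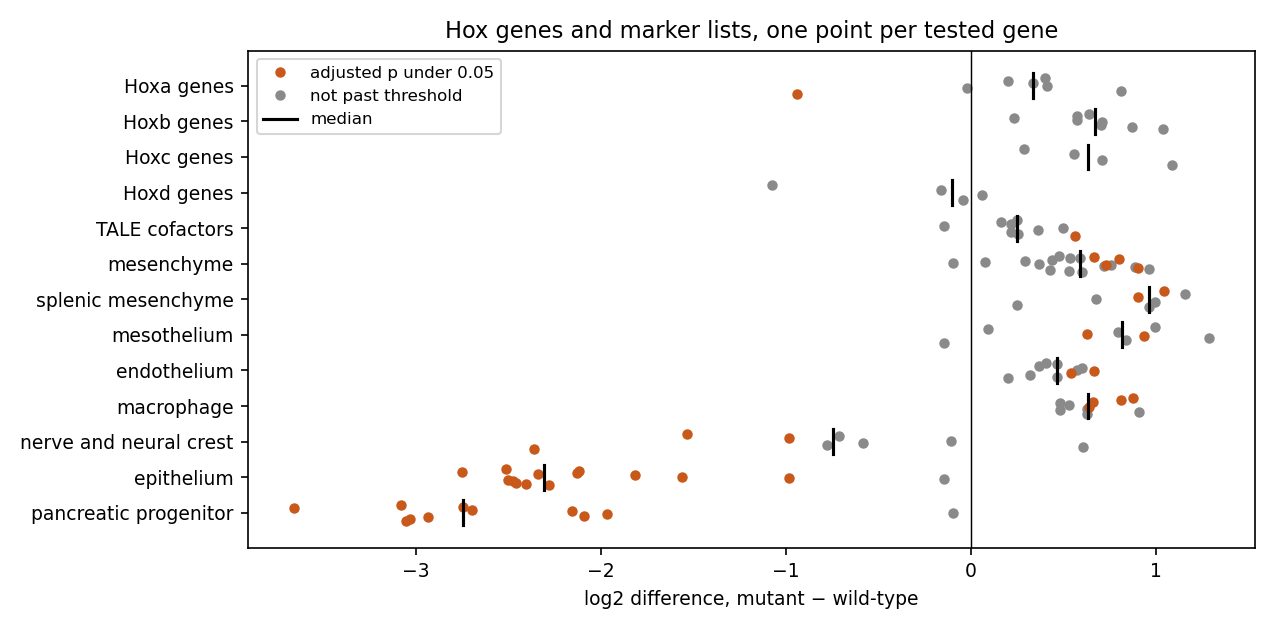
Log2 difference, mutant minus wild-type, of each tested gene of the 4 Hox clusters and of some of the gene lists, 1 row per cluster or list. Filled orange points mark an adjusted p under 0.05 in limma. The retinoic acid, Cdx and ParaHox, polycomb, trithorax, cluster neighbour, nephric, intestinal and liver lists are not drawn. Hoxb and Hoxc points lie above 0, as do 18 of 19 mesenchyme genes, and 10 of 11 pancreatic progenitor genes are called lower.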

How the data were processed

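The deposited scanner files were written by Agilent Feature Extraction 9.5.3.1, per the file headers. Their processed signal is a linear intensity after subtraction of background and of a spatial trend on each array. Dim spots carry substituted values, which can affect fold changes of dim genes. The value table the authors deposited, used as an alternative, also holds intensity values, with equal distributions in all arrays. The submitters' processing notes name limma without steps, so its background method stays unknown, and its values are not ratios. The deposited quality columns are flags and count as other than a measurement.

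Of 45018 spots on each array, 1639 control spots and spots flagged as outliers were left out. The log2 signal minus the 75th percentile of the array was taken and averaged over the spots of a probe. Of 41174 probes, 27389 were kept, which needed the well-above-background flag on 4 arrays or more of the 8, and a gene was represented by its brightest kept probe. Names came from RefSeq accessions for 23374 probes (45 of the 49 Hox probes), from another probe of that name for 4500 and from the files for 13300. Probe positions are the files' own (mm8) and were not placed in exons here. Genotypes were compared with the two-sided moderated test of limma 3.58.1 (lmFit and eBayes, in R 4.3.3), adjusted by Benjamini-Hochberg over all genes, with a threshold of 0.05. Flagged spots left 9 genes with a missing value, none of them a tested Hox gene. Single genes were also compared by a two-sided exact permutation test over 70 assignments. The number of arrays limits the precision, and the procedure was tested on simulated data. Tables and plots used Python 3.11.15, pandas 2.3.3, matplotlib 3.10.9 and version 1.17.8 of the R package data.table.

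The Hox genes and the 17 gene lists were chosen with earlier results of these data known. Values per sample are given for each Hox gene past the threshold and, of the rest, the one with the lowest raw p in each cluster. Of each list, at most 4 genes past the threshold are named, by size of difference, and others named were chosen after their values were seen. The replicate numbers of the labels were not treated as pairs in the main comparison. Deviations of same-numbered arrays correlated at -0.35, -0.30, -0.0048 and 0.088 for numbers 1 to 4. These values cannot show whether same-numbered pools shared a litter or a preparation. Alternatives were other background corrections, normalizations, filters and probe choices, slide and replicate blocks, array weights, and leaving out arrays.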

Additional observations from a re-analysis of the deposited data

Results flagged for a closer look

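In 10 of 74 groups of 4 arrays (37 Hox genes in each genotype), 1 array lay far from the other 3 by Dixon's gap test. Its critical value is set for about 1 of 20 groups of independent, normally distributed values. The groups here share the same 8 arrays and some lay near background, so their count cannot be held against that rate. Values are log2 signals over the 75th percentile of the array. Wild-type replicate 3 was high for 3 posterior genes that were not tested. Hoxc10 lay at -1.49 there and between -7.46 and -6.85 on the other wild-type arrays, Hoxb13 at -2.74 against -7.63 to -7.05, and Hoxd13 at -3.97 against -7.38 to -6.81. On this array 36.8% of olfactory receptor probes were also well above background, and the part of that background in these signals was not tested.

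Wild-type replicate 1 was low for Hoxa7, at -0.25 against 0.12 to 0.18, and for Hoxb7, at 0.32 against 1.05 to 1.18. Without this array the limma difference of Hoxa7 was 0.71 and that of Hoxb7 0.51. Wild-type replicate 4 was low for Hoxa2, at -0.56 against -0.37 to -0.33, and for Hoxb3, at -0.58 against -0.21 to -0.14. Among mutant arrays, replicate 3 was high for Hoxa5, at 1.36 against 0.31 to 0.45. Replicate 2 was low for Hoxc4, at -1.87 against -0.83 to -0.71. Replicate 4 was low for Hoxd4, at -2.78 against -1.97 to -1.90.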

How the results depend on the processing

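The direction of the Hoxa9, Hoxa7, Hoxb6 and Hoxc6 differences and of the Hox median held in all 20 alternatives, and that of Hoxd3 in the 19 that tested it. The number of Hox genes past the threshold was 1 in the analysis reported, 4 with normexp background correction, 4 with array weights and 4 with slide as a random block. It was 3 in the authors' deposited value table (of 30 tested), 3 with quantile normalization, 3 with slide as a fixed block, 2 with a stricter filter and 2 with the mean of a gene's probes. Leaving out 1 array gave 0 to 3, and the gene called without wild-type replicate 3 was Hoxb8. With no filter it was 1, Hoxb1, which was not well above background on any wild-type array, so that no fold is given. The Hox median moved to 0.23 in the authors' deposited value table. Detection read as a row in that table, which does not separate the genotypes, gave 30 Hox genes. Over all genes, 994 passed in the analysis reported, 29.0% of them higher. The count was 419 with no filter, 1709 with array weights, 1529 with slide as a random block and 395 to 976 on leaving out 1 array. Of the calls, 43.4% were higher with normexp and 41.7% in the authors' deposited value table.

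With a replicate block, 0 Hox genes passed in limma (10 at a raw p under 0.05) and 340 of all genes. The adjusted p of Hoxa9 was then 0.0892 in limma, within 0.00506 to 0.243 over its alternatives. In 2 alternatives chosen after seeing the data, leaving out wild-type replicate 3 and mutant replicate 1 gave 0 Hox genes (9 at a raw p under 0.05) and 6 of all genes, and leaving out mutant replicate 3 as well gave 0 (7) and 0 (2327) in limma. Fewer arrays enter these fits. Apart from that, the cause of each change was not tested. Signal near background limits Hoxb9, Hoxc9, Hoxd3 and Hoxd12.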
